A study of Homo sapiens with 12 samples.

Results

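The aldo-keto reductases AKR1B1, AKR1B10, AKR1C1, AKR1C2 and AKR1C3, the quinone reductase NQO1, the carbonyl reductase CBR1, the aldehyde dehydrogenase ALDH3A1 and the conjugate exporters ABCC2 and ABCC3 were followed by symbol in RNA sequencing of A549 cells, a line established from a human lung carcinoma. These 10 genes, of 58676 in the deposited table, were chosen as known targets of the transcription factor NRF2, and all 10 passed the filter on low values. The libraries came from a control line (genotype label Control1) and 2 lines with a knockout of NFE2L1, named NFE2L1 KO1 and NFE2L1 KO2. All 3 lines received either DMSO alone as vehicle or 200 nM of bortezomib, an inhibitor of the proteasome, over 4 h, and each of these 6 groups has 2 libraries. The labels do not say whether a line was grown from 1 clone, how the knockout was made, or whether the libraries of a group came from separate cultures, so p-values measure the spread between these libraries, which may be technical. The control is a single line, so the knockout and whatever else differs between the lines cannot be told apart.

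The reductases in this set convert reactive aldehydes, ketones and quinones into alcohols or hydroquinones, ALDH3A1 oxidises aldehydes to acids, and ABCC2 and ABCC3 pump glutathione and glucuronide conjugates out of the cell. NRF2, encoded by NFE2L2, binds as a heterodimer with a small MAF protein to the antioxidant response element in the promoters of such genes. KEAP1 and the ubiquitin ligase scaffold CUL3 send NRF2 to the proteasome, and BACH1 competes with it for the same element. A549 carries a mutated KEAP1 and is known for constantly active NRF2 and for high levels of these enzymes. NFE2L1 encodes a related factor, NRF1, which binds similar elements and is known for raising the transcription of proteasome subunits after proteasome inhibition.

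The AKR1C genes lie side by side on chromosome 10 and are near copies of one another, so their coding sequences are shown first because they limit how reads can be assigned. Coding bases 73 to 162, counted from the A of the start codon, are printed from the GENCODE release 29 transcripts. This stretch was chosen because no other of 90 bases holds more differences between AKR1C1 and AKR1C2, so it is not typical of the whole. Capitals mark each base that differs from AKR1C1.
AKR1C1: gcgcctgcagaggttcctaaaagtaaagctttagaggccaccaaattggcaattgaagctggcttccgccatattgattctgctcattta
AKR1C2: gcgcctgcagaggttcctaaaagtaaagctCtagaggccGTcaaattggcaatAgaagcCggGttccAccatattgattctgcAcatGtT
AKR1C3: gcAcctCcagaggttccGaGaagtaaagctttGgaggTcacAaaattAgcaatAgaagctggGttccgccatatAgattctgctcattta
In this stretch AKR1C2 differed from AKR1C1 at 10 of 90 bases and AKR1C3 at 11. Over the whole coding sequence of 972 bases AKR1C1 and AKR1C2 were 98.05% identical, with 19 differences, and 51.79% of the 50-base stretches of AKR1C1 occurred unchanged in AKR1C2. AKR1C3 was more distant, at 91.46% identity with AKR1C1 and 91.05% with AKR1C2.

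The deposited gene models of this cluster also overlap. AKR1C1 (ENSG00000187134) was placed at 4963253 to 5107522 on the plus strand, where GENCODE release 29 ends it at 4983283. AKR1C2 (ENSG00000151632) was placed at 4922564 to 5135226 on the minus strand and so spans both neighbours, against 4987400 to 5018031 in GENCODE release 29. AKR1C3 (ENSG00000196139) lay at 5035354 to 5107686 on the plus strand. The strand setting and the treatment of shared reads are not given in the sources used here, so the split of reads between these genes is uncertain and their summed reads are given as well. AKR1B1 and AKR1B10 are neighbours on chromosome 7 (134442350 to 134459284, minus strand, and 134527592 to 134541408, plus strand). CBR1 on chromosome 21 (36069941 to 36073166) lies wholly within a wider model of SETD4 on the other strand, whose FPKM was 1.57 to 3.30.

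The antioxidant response element was looked for in RefSeq promoter sequences (GRCh38.p14, 250 bases before to 50 after each gene start), where 7 of the 10 genes had an entry, in 9 windows. The core TGACNNNGC, read on both strands, occurred in 1 of these 9 windows, against 13.35% of 35116 windows of all genes. The match is shown because it is the only copy found beside these genes. It was on the minus strand of the CBR1 window (chr21:36069774-36070073), starting at position -159 from the gene start, with the core in capitals.
CBR1: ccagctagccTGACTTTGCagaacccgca
A match is a description of letters and not a bound site, and the windows without one say nothing about elements farther upstream.

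Expression was compared as FPKM, fragments per kilobase of gene model at a common depth of assigned reads, which is a level per length. The libraries held 13211608 to 23819258 assigned reads, so that 3 reads on a gene of 1 kilobase correspond to an FPKM of 0.126 to 0.227. In each group 1 library carries the suffix R2 in its title, and the other carries R1 (KO lines) or no suffix (control line) and is called the first library here. No label pairs the R1 libraries with the unsuffixed control libraries, so wherever first libraries of a knockout line and the control line are paired, that pairing is assumed. The 6 R2 libraries stood apart, with 12.3% to 19.3% of reads on mitochondrial genes against 5.4% to 6.8% in the 6 first libraries. Fold changes are therefore given with a replicate block, that is, within pairs of libraries, as well as without it. NFE2L1 itself was at an FPKM of 72.7 and 151 in the control line, against 8.45 and 14.8 in KO1, while KO2 had 18.6 and 33.6, all in vehicle (first library, then R2). The epithelial keratins KRT8 and KRT18 were at 126 to 703 and 112 to 586, EPCAM and CDH1 at 1.25 to 10.6, and of 5 alveolar markers SFTPA1 was at 0 in all libraries, NKX2-1, SFTPB and SFTPC at 0 to 0.130 and NAPSA at 0.0998 to 0.732. The 3 endothelial markers (PECAM1, VWF, CDH5) did not exceed 0.20. Of 3 leukocyte markers PTPRC and CD3E did not exceed 0.0603, and CD14 was at 0 to 3.63. Of 3 fibroblast markers DCN did not exceed 0.0425 and COL1A2 0.408, while COL1A1, a collagen chain, was at 1.42 to 23.3. The fibroblast sum was higher with bortezomib without overlap, at 1.85 to 5.61 with vehicle and 6.10 to 10.7 with bortezomib for the control line, 1.56 and 7.59 to 19.2 for KO1, and 3.63 to 4.74 and 11.3 to 23.6 for KO2. The leukocyte sum was lower without overlap, at 2.38 to 3.14 and 0.339 to 0.598 for the control line, 2.40 to 3.63 and 0.361 to 0.815 for KO1, and 0.73 to 2.20 and 0 to 0.336 for KO2. The part of either in the bortezomib differences was not tested. The sum of the 4 epithelial markers in vehicle was 286 to 483 for the control line, 463 to 794 for KO1 and 872 to 1295 for KO2, and its part in the differences between lines was not tested. In bulk RNA, fewer cells expressing a gene and less RNA per cell cannot be told apart.

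Most of the set was among the most abundant transcripts of these cells. By mean FPKM over the 12 libraries AKR1B10 ranked 20 of 58676 genes (mean 1023), followed by ALDH3A1 at rank 65 (287), NQO1 at 91 (228), AKR1B1 at 92 (227), AKR1C2 at 149 (149), ABCC2 at 167 (137), AKR1C3 at 230 (109) and ABCC3 at 320 (86.7). AKR1C1 at rank 1598 (24.6) and CBR1 at rank 2747 (15.3) were the lowest. The level of AKR1C1 was divided by a deposited gene length of 8834 bases, against 1744 for AKR1B10. Its model extends over AKR1C3 and its share of reads is uncertain, so its rank depends on that model. NQO1 and AKR1B1 did not differ beyond the spread of their libraries, and neither did AKR1C2 and ABCC2.

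**Figure D1:**
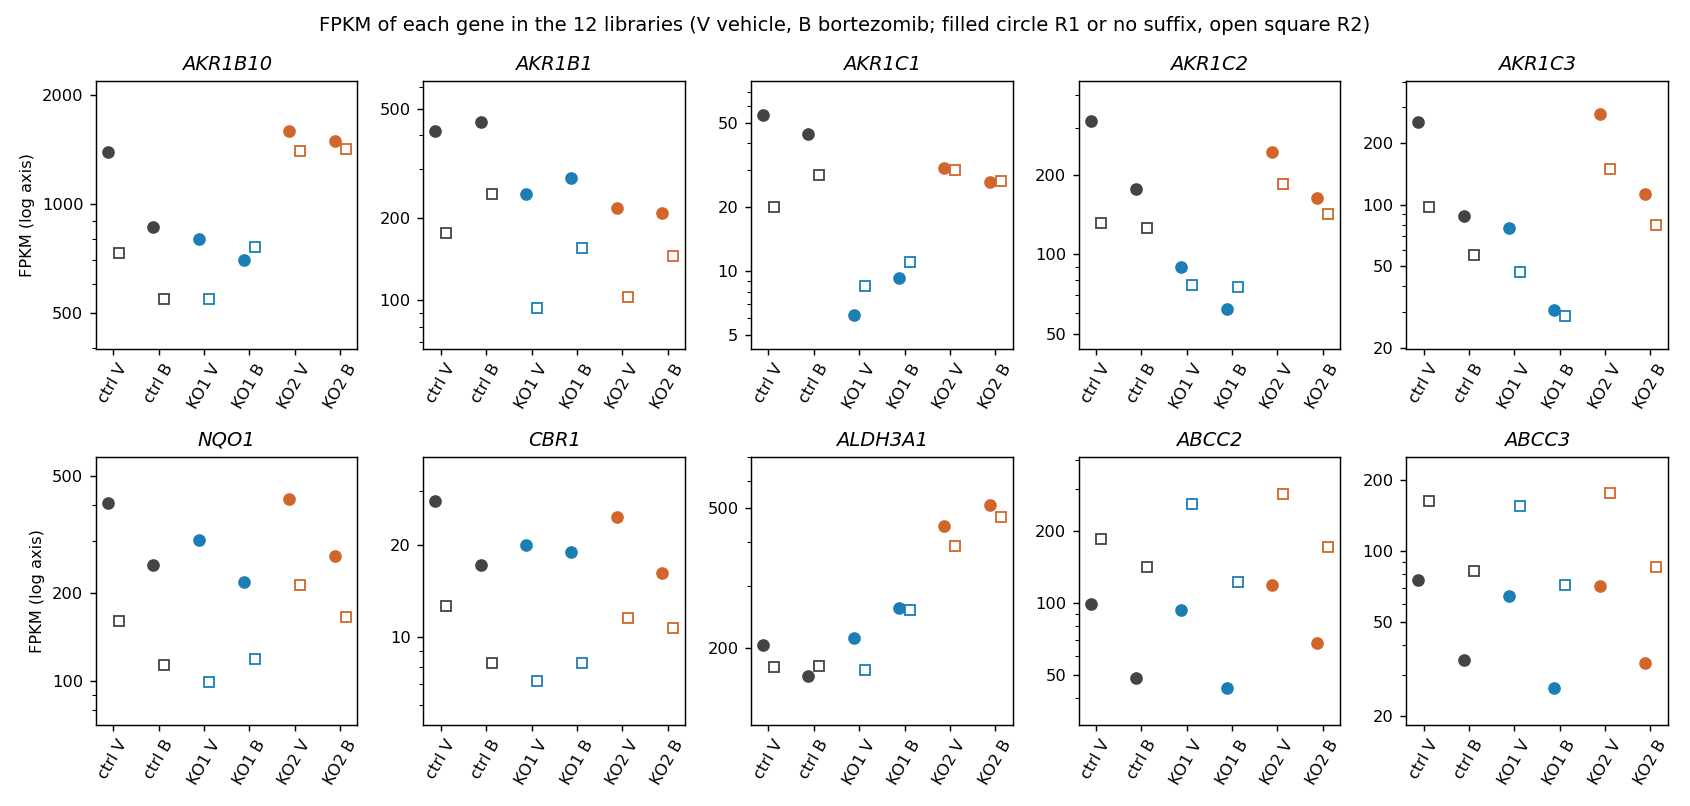
FPKM (log axis) of the 10 genes in the 12 libraries, by line and treatment (V vehicle, B bortezomib); filled circles are the first libraries (R1 or unsuffixed) and open squares the R2 libraries. The R2 squares lie above the circles in every group for ABCC2 and ABCC3 and below them for AKR1B1, NQO1 and CBR1, while KO2 lies above both other lines in ALDH3A1.

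Limma on log2(FPKM + 1) with no pairing called none of the 10 genes in any of the 9 comparisons made, at a Benjamini-Hochberg adjusted p under 0.05 over 12194 tested genes. Its lowest adjusted p among them was 0.22 (limma), for AKR1C1 in KO1 against the control line in vehicle, a comparison in which 3 genes of the set reached an unadjusted p under 0.05. Of all tested genes 4.41% reached it there. Unadjusted, 5 genes of the set did so for KO1 against KO2 in vehicle (2.35% of all genes) and 1 each for KO2 in vehicle, KO1 in bortezomib and KO2 in bortezomib against the control line (3.55%, 5.5% and 3.91%). None did so for bortezomib in the control line, KO1 or KO2, where 12.3%, 9.46% and 9.59% of all genes did. Few genes of any kind were called in that fit. For bortezomib the share was 0.467% (control line), 0.238% (KO1) and 0.320% (KO2). For the knockout lines against the control line in vehicle it was 0.213% (KO1) and 0.230% (KO2), in bortezomib 0.107% (KO1) and 0.0656% (KO2), and for KO1 against KO2 in vehicle 0.0656%. The difference between the libraries of a pair was far more even than the levels, and the results below come from the fit with the replicate block unless stated. That block has 3 levels (R1, R2, no suffix), so it leaves bortezomib fold changes and KO1 against KO2 as they were without it, and it links knockout with control libraries chiefly by their R2 pairs.

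Bortezomib lowered the exporters in all 3 lines. ABCC2, which carries conjugates across the apical membrane, had an FPKM of 99.6 and 187 with vehicle and 48.7 and 142 with bortezomib in the control line (first library, then R2). In KO1 it went from 93.2 and 261 to 44.1 and 123. In KO2 it went from 120 and 288 to 68.2 and 172. Every bortezomib library was below the vehicle library of its pair, at 47.0% to 76.1% of it, but the groups overlapped because the R2 libraries were 187% to 292% of their partners. The difference in log2(FPKM + 1), bortezomib minus vehicle, was -0.70 for the control line (SE 0.17, limma adjusted p 0.0146). It was -1.07 in KO1 (adjusted p 0.00281), and KO2 had -0.77 (adjusted p 0.0121), both with an SE of 0.17. Leaving out a library of another line does not change such a fold change with the block, only its SE and adjusted p. The control line call was lost without either first library of that line (-0.39, limma adjusted p 0.202 and 0.203), and the KO2 call without any 1 of the 4 KO2 libraries, while the KO1 call was kept in all 12 fits that left out a library.

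ABCC3, the basolateral counterpart, gave the tightest response of the set. Its FPKM was 75.5 and 163 with vehicle and 34.6 and 82.6 with bortezomib in the control line. KO1 had 64.8 and 156 with vehicle against 26.4 and 71.8. KO2 had 71.1 and 176 against 33.7 and 85.5. In all 6 pairs the level with bortezomib was 40.7% to 50.6% of that with vehicle. On the log2 scale this was -1.04 for the control line (SE 0.14, limma adjusted p 0.000809), -1.19 for KO1 (adjusted p 0.000584) and -1.04 for KO2 (adjusted p 0.000964). It stayed called in all 12 fits that left out 1 library with the block, in each line. Only the fits without a library of the line itself could change its fold change. In these it stayed at -1.10 to -0.98 in the control line, -1.25 to -1.12 in KO1 and -1.06 to -1.03 in KO2. Without the block the adjusted p was 0.704 to 0.830 (limma), and the R2 library differed from its partner by as much as bortezomib differed from vehicle.

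AKR1C3, a reductase of ketosteroids and prostaglandins, also fell with bortezomib in each line. In the control line its FPKM was 254 and 97.9 with vehicle and 88.6 and 56.6 with bortezomib. In KO1 the values were 77.2 and 46.7 against 30.7 and 28.7. In KO2 they were 278 and 150 against 113 and 80.1. The vehicle and bortezomib libraries did not overlap in any line, and the paired levels were 34.8% to 61.5% of vehicle. Such separation downward was seen in 17.4% (control line), 16.1% (KO1) and 19.2% (KO2) of all tested genes. For AKR1C3 the log2 fold changes were -1.15 (SE 0.23, limma adjusted p 0.00548), -0.99 (adjusted p 0.0122) and -1.09 (adjusted p 0.00846) in the control line, KO1 and KO2. The call was lost without either first library in the control line (-0.78) and in KO1 (-0.88 and -0.69), and without the first vehicle library in KO2 (-0.87). In each line the decrease was larger in the first libraries, for example 34.8% against 57.9% of vehicle in the control line.

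The other AKR1C genes moved less. AKR1C2, a reductase of dihydrotestosterone, had an FPKM of 320 and 131 with vehicle and 177 and 126 with bortezomib in the control line. KO1 had 89.5 and 76.4 against 62.1 and 75.4, and KO2 had 244 and 185 against 163 and 142. All 6 pairs were lower with bortezomib, at 55.4% to 98.7% of vehicle, and none of the 3 lines passed the test (log2 fold change -0.45 in the control line, SE 0.22, limma adjusted p 0.145). AKR1C1, which inactivates progesterone, was at 54.3 and 20.0 with vehicle and 44.1 and 28.5 with bortezomib in the control line, at 6.23 and 8.47 against 9.25 and 11.1 in KO1, and at 30.5 and 30.0 against 26.3 and 26.7 in KO2. It was higher with bortezomib in both pairs of KO1, lower in both of KO2 and split in the control line.

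Summed over the 3 genes as 1 feature, the AKR1C reads gave an FPKM of 188 and 74.6 with vehicle and 98.6 and 67.3 with bortezomib in the control line, 50.1 and 39.8 against 31.7 and 36.5 in KO1, and 158 and 109 against 91.7 and 77.3 in KO2. The sum was lower with bortezomib in all 6 pairs but was not called (limma adjusted p with the block 0.0935, 0.230 and 0.0633). The share of the summed reads given to AKR1C3 was lower with bortezomib in every pair, from 30.5% to 20.3% and from 29.6% to 19.0% in the control line, from 34.8% to 21.9% and from 26.5% to 17.7% in KO1, and from 39.8% to 27.9% and from 31.2% to 23.4% in KO2. AKR1C1 took a larger share in every pair, for example 12.7% with vehicle and 19.7% with bortezomib in the first control libraries.

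**Figure D2:**
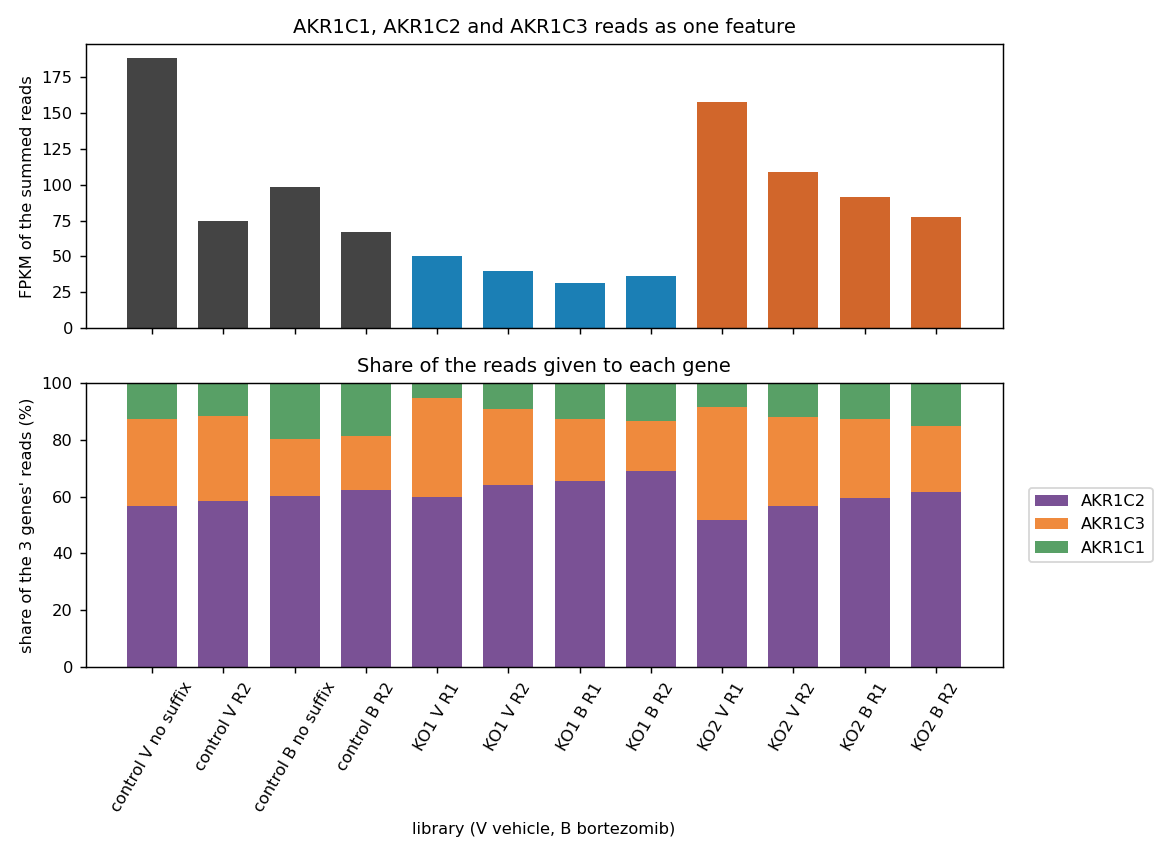
Top, FPKM of the reads of AKR1C1, AKR1C2 and AKR1C3 counted as 1 feature in each library (V vehicle, B bortezomib), with control in grey, KO1 in blue and KO2 in orange; bottom, the share of those reads given to each gene, in percent. The 4 KO1 bars are between 31.7 and 50.1, below the 67.3 to 188 of the other lines, and the AKR1C3 share is smaller with bortezomib in all 6 pairs.

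AKR1B10, which reduces retinal and dietary aldehydes, fell with bortezomib in the control line, from 1397 and 730 to 865 and 545. KO1 had 802 and 546 with vehicle against 702 and 763 with bortezomib. KO2 had 1597 and 1407 against 1499 and 1423. Its log2 fold change in the control line was -0.56 (SE 0.18, limma adjusted p 0.0439), a call that was kept in 3 of 12 fits leaving out a library and not with a block of 2 levels, in which the unsuffixed libraries share the level of R1 (adjusted p 0.110). In the knockout lines the response was 0.15 and -0.04 (limma adjusted p 0.586 and 0.899). The difference of the response between knockout and control lines was not called either (0.61, SE 0.22, limma adjusted p 0.363). AKR1B1, the aldose reductase of the polyol pathway, was higher with bortezomib in 5 of 6 pairs, at 96.3% to 167% of vehicle, but did not pass the test in any line (log2 fold change 0.29, 0.46 and 0.22; limma adjusted p 0.310, 0.126 and 0.466).

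NQO1, which reduces quinones by 2 electrons and is the usual readout of NRF2 activity, stood at 407 and 161 with vehicle and 250 and 114 with bortezomib in the control line. KO1 had 304 and 99.3 against 218 and 119. KO2 had 418 and 213 against 269 and 166. It was lower with bortezomib in 5 of 6 pairs, the exception being the R2 pair of KO1 at 120% of vehicle. No line passed the test, with log2 fold changes of -0.60 (SE 0.21, limma adjusted p 0.0567), -0.11 (adjusted p 0.731) and -0.50 (adjusted p 0.113) in the control line, KO1 and KO2. With voom on reads recovered from the FPKM and the same block the control line did pass (-0.60, limma adjusted p 0.0157), and so did KO2 (-0.50, adjusted p 0.0468).

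CBR1, which reduces carbonyl groups of quinones and anthracyclines, had the lowest mean of the set over the 12 libraries, at 28.0 and 12.6 with vehicle and 17.2 and 8.21 with bortezomib in the control line, 20.0 and 7.19 against 19.0 and 8.22 in KO1, and 24.7 and 11.5 against 16.2 and 10.7 in KO2. It fell by 0.62 in the control line (SE 0.19, limma adjusted p 0.0317), a call kept in 6 of 12 fits leaving out a library. ALDH3A1, which oxidises medium-chain aldehydes from lipid peroxidation, had 204 and 175 with vehicle and 166 and 177 with bortezomib in the control line. In KO1 it had 213 and 172 against 260 and 256, and in KO2 445 and 390 against 510 and 473. It was higher with bortezomib in the 4 pairs of the knockout lines and was not called in any line. With voom and the block it was called higher in KO1 (0.43, limma adjusted p 0.0467).

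**Figure D3:**
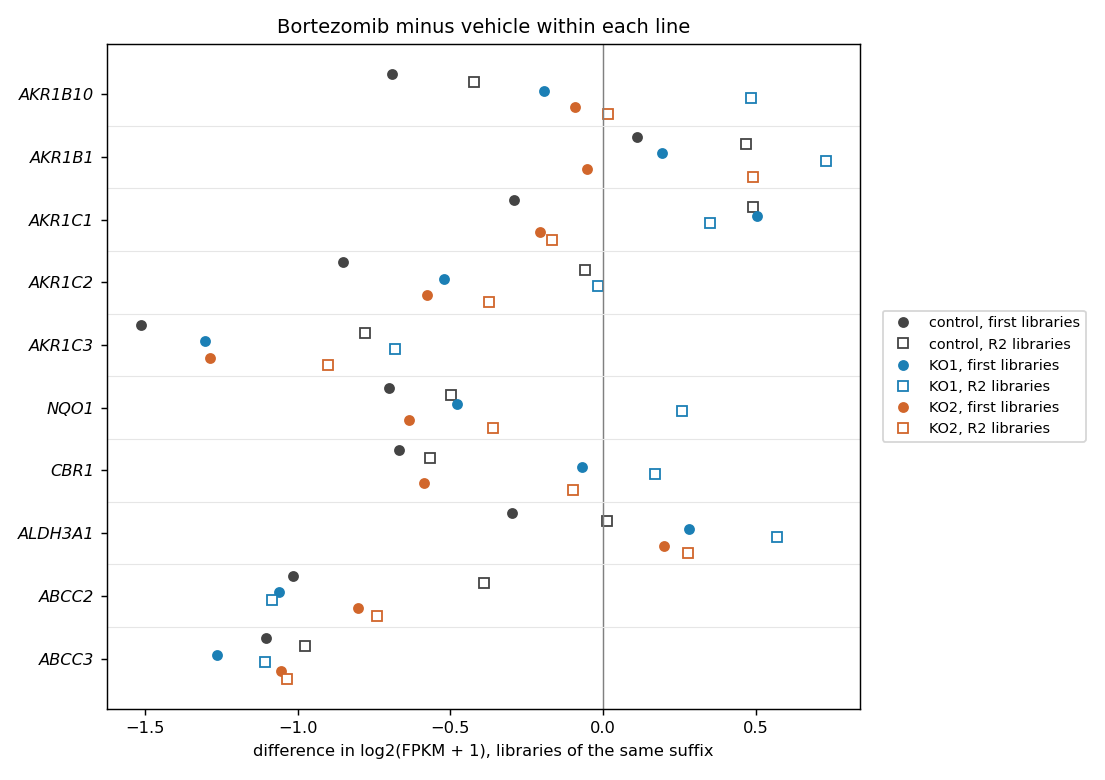
Difference in log2(FPKM + 1), bortezomib minus vehicle, within each pair of libraries of the same suffix (filled circles for the libraries with R1 or no suffix, open squares for R2), by gene and line. All 6 points of ABCC2, ABCC3, AKR1C2 and AKR1C3 are below 0, and those of ABCC3 lie closest together.

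In counts, the paired fit called 5 of the 10 genes for bortezomib in the control line, all lower, where 32.4% of all tested genes were called. It called 3 in KO1, where 27.7% of all genes were called, and 3 in KO2, where 27.0% were. All of these were lower, and the 3 of KO1 and KO2 were AKR1C3, ABCC2 and ABCC3 in both. The set had a median log2 fold change of -0.58 (control line), -0.03 (KO1) and -0.41 (KO2), beside -0.01, 0.01 and -0.02 over all tested genes. The interaction of the knockout lines with bortezomib was called for 0 of the 10 genes in either fit. It was called for 0% of all tested genes in both fits, and the number of the set at an unadjusted limma p under 0.05 was 0 and 2, without and with the block, beside 0.943% and 10.7% of all tested genes.

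Between the lines, the AKR1C genes separated KO1 from both others. AKR1C1 in vehicle was at an FPKM of 6.23 and 8.47 in KO1, below 54.3 and 20.0 in the control line and below 30.5 and 30.0 in KO2, and no library of KO1 overlapped either. Of all tested genes 7.03% were lower in KO1 without overlap against the control line, and 7.28% against KO2. The following values are for AKR1C1. In vehicle it was at 11.5% and 42.4% of the paired control libraries and at 20.4% and 28.2% of the paired KO2 libraries. Against the control line the log2 fold change was -1.46 (SE 0.23, limma adjusted p 0.00827), and -2.04 without the block (SE 0.46, adjusted p 0.220). Against KO2 it was -1.92 (SE 0.20, limma adjusted p 0.00181). Both calls were kept in all 12 fits that left out a library with the block. With bortezomib KO1 was again lower than the control line (-1.13, SE 0.23, limma adjusted p 0.0213), a call that 4 of the 12 fits lost. Without the R2 bortezomib library of the control line it was -0.55 (limma adjusted p 0.368).

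For AKR1C1 no difference of KO2 from the control line was called. It was at 56.2% of the control line in the first libraries and at 150% in R2, and its log2 fold change in vehicle was -0.12 without the block, -0.12 with the block of 2 levels and 0.46 with that of 3 levels (limma adjusted p 0.9999, 0.901 and 0.321). Thus its direction depended on which libraries were set against each other.

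AKR1C2 and AKR1C3 in vehicle were likewise lowest in KO1. AKR1C2 in KO1 (89.5 and 76.4) was below KO2 (244 and 185), with a log2 difference of -1.35 (SE 0.22, limma adjusted p 0.0153). Against the control line (320 and 131) KO1 differed by -0.92 (SE 0.26, adjusted p 0.0742), and by -1.30 with the block of 2 levels (adjusted p 0.0231), where it passed. AKR1C3 in KO1 (77.2 and 46.7) was below KO2 (278 and 150), with a difference of -1.75 (SE 0.23, limma adjusted p 0.00538). These calls against KO2 were lost in 4 of 12 (AKR1C2) and 2 of 12 (AKR1C3) fits leaving out a library. Against the control line (254 and 97.9) it was at -1.15 (SE 0.26, adjusted p 0.0377), a call kept in 4 of 12 fits leaving out a library. With bortezomib the difference of KO1 from the control line was -0.999 for AKR1C3 and -0.74 for AKR1C2 (limma adjusted p 0.0533 and 0.122), and both passed with the block of 2 levels (adjusted p 0.0114 and 0.0324) and with voom and the block (0.00489 and 0.0330). The summed AKR1C reads of KO1 differed from KO2 by -1.53 in vehicle (limma adjusted p with the block 0.00913), a value that does not depend on how the counted reads were split among the 3 genes. If reads shared between the genes were left uncounted, they are missing from the sum. Against the control line the sum differed by -1.04 (adjusted p 0.0519).

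ALDH3A1 set KO2 apart in the other direction. In vehicle its FPKM was 204 and 175 in the control line, 213 and 172 in KO1 and 445 and 390 in KO2. With bortezomib it was 166 and 177, 260 and 256, and 510 and 473. The KO2 libraries were at 218% to 308% of their control partners and overlapped neither other line. Upward separation of KO2 from the control line was seen in 10.8% (vehicle) and 13% (bortezomib) of all tested genes. In bortezomib KO1 was also above the control line without overlap, as were 13.5% of all tested genes. The log2 fold change of KO1 there was 0.54 (limma adjusted p 0.101), and 0.59 with the block of 2 levels (adjusted p 0.0332), where it passed. Against the control line the log2 fold change of KO2 was 1.09 in vehicle (SE 0.18, limma adjusted p 0.00937) and 1.47 in bortezomib (SE 0.18, adjusted p 0.00350). In vehicle the log2 difference of KO1 from KO2 was -1.12 (SE 0.15, limma adjusted p 0.00667). The vehicle call against the control line was lost in 3 of 12 fits that left out a library, and the bortezomib call in none. The call between KO1 and KO2 was lost in 3 of 12.

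AKR1B10 likewise was highest in KO2. With bortezomib KO2 (1499 and 1423) was above the control line (865 and 545) by 1.40 (SE 0.21, limma adjusted p 0.00833), a call lost without either R2 bortezomib library of these lines. With the block of 2 levels this bortezomib difference was 1.09 and still passed (limma adjusted p 0.0287). In vehicle KO2 (1597 and 1407) was above the control line (1397 and 730) by 0.88 (SE 0.21, limma adjusted p 0.0507), which was not called. It passed with voom and the block (limma adjusted p 0.00688). With the block of 2 levels, and likewise without a block, the vehicle difference was 0.569 and was not called. The first vehicle pair was at 114% of the control line and the R2 pair at 193%. In vehicle KO2 was also above KO1 (802 and 546), with a log2 difference of KO1 minus KO2 of -1.18 (SE 0.18, limma adjusted p 0.0121). AKR1B1 was the member with the same order in both knockout lines. Its FPKM in vehicle was 416 and 175 in the control line, 243 and 93.2 in KO1 and 217 and 103 in KO2, and with bortezomib 449 and 243, 279 and 155, and 209 and 145. All 8 paired values of the knockout lines were below the control line, at 46.5% to 63.9% of it. These values share control libraries, and the pairing of the first libraries is assumed. Without pairing, the libraries overlapped those of the control line except for KO2 in bortezomib, where 10.1% of all tested genes were lower without overlap. The log2 fold changes were -0.78 and -0.79 in vehicle and -0.61 and -0.86 in bortezomib (KO1, KO2; limma adjusted p 0.101, 0.110, 0.167 and 0.0824), so none was called with the block of 3 levels. With the block of 2 levels 3 of the 4 were called (adjusted p 0.0336, 0.0426, 0.0594 and 0.0255, in the same order), and the same 3 with voom and the block of 3 levels (0.0241, 0.0238 and 0.0135).

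NQO1, CBR1, ABCC2 and ABCC3 were not called between lines with the block of 3 levels. NQO1 in KO1 was at 72.8% and 46.6% of KO2 in vehicle, or -0.78 on the log2 scale (SE 0.21, adjusted p 0.10 in limma), and it passed with voom on recovered reads and the block (-0.78, limma adjusted p 0.0133). ABCC3 in the knockout lines was at 76.2% to 108% of the paired control libraries over both treatments.

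**Figure D4:**
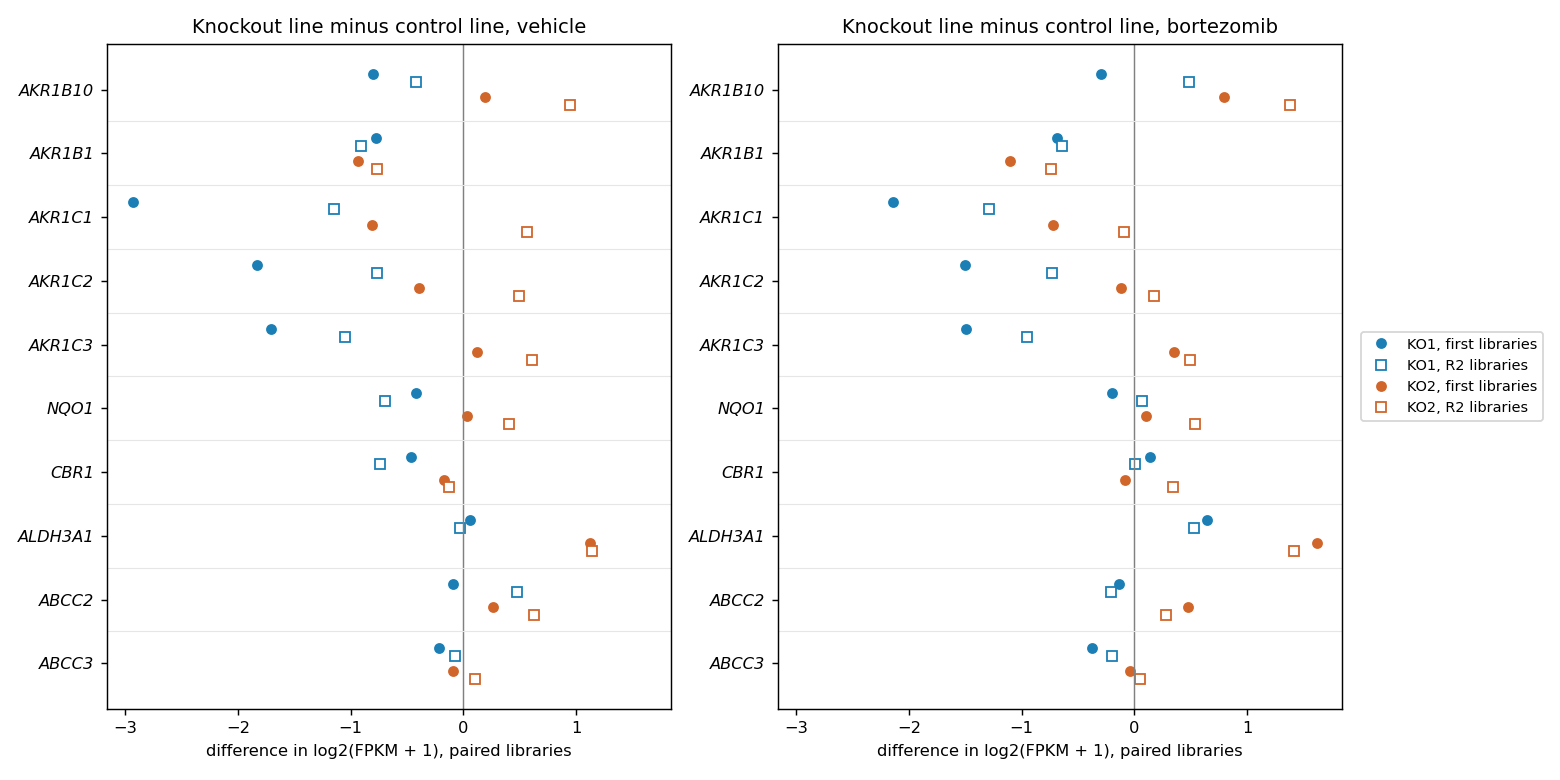
Difference in log2(FPKM + 1), knockout line minus control line, within pairs (R1 against the unsuffixed library, filled circles; R2 against R2, open squares), in vehicle (left) and bortezomib (right). All KO1 points of AKR1C1, AKR1C2 and AKR1C3 are below 0, all KO2 points of ALDH3A1 are above 1, and AKR1B1 is below 0 in all 8 points.

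In counts, 2 of the 10 genes were called for KO1 against the control line in vehicle, both lower, where 5.95% of all tested genes were called, and 1 in bortezomib, lower, where 7.54% were. For KO2 against the control line 1 was called in vehicle and 2 in bortezomib, all higher, beside 4.91% and 4.81% of all genes. These comparisons share the control libraries. KO1 against KO2 in vehicle, which does not use the control line, had 5 of the 10 called, all lower in KO1 (AKR1B10, AKR1C1, AKR1C2, AKR1C3 and ALDH3A1), where 3.00% of all tested genes were called. The AKR1C genes among them have overlapping models and an uncertain split of reads, so they are not separate observations. Summed as 1 feature they gave 1 call in that comparison (-1.53, limma adjusted p with the block 0.00913). The median log2 fold change of the set in that comparison was -0.95, against -0.05 over all genes. The same 5 were the ones whose libraries did not overlap between KO1 and KO2, downward separation being found in 7.28% of all tested genes.

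The genes of the set varied together to different degrees. After the mean of its replicate set (the 6 R2 libraries, the 6 others) was subtracted from each library, Pearson's r of log2(FPKM + 1) over the 12 libraries exceeded 0.8 in 7 of 45 pairs of genes. The highest were AKR1C2 with AKR1C3 (0.93), ABCC2 with ABCC3 (0.92), AKR1C1 with AKR1C2 (0.91), AKR1C3 with NQO1 (0.88) and NQO1 with CBR1 (0.88). AKR1B1 ran against ALDH3A1 (-0.56) and ABCC2 (-0.53). Over the 45 pairs the median r was 0.489, and 0.306 without the subtraction. The highest pairs named kept an r of 0.75 to 0.96 without it, but some others turned sign, such as NQO1 with ABCC2 (0.67 with it, -0.46 without). These values describe 12 libraries that share lines, treatments and depth, and the split of reads between the AKR1C genes is uncertain. Among all other tested genes, those most like AKR1C1 by the same measure were LBH (0.97), SLC1A5 (0.96) and PTGR1 (0.95), with 0.88, 0.59 and 0.84 without the subtraction. Those most like AKR1B10 were USP3 (0.94), PDLIM5 (0.92) and FAM50B (0.92), with 0.86, 0.92 and 0.79 without it. NQO1 was followed by HNRNPUL1 (0.97), SRP9 (0.97) and RAB11A (0.96), with 0.98 to 0.99 without the subtraction. ABCC2 was followed by HEXIM1, ZMYND8 and AC005355.2 (0.97 each), which without the subtraction had only 0.58, 0.10 and 0.28.

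The regulators of these genes were measured beside them, and most rose with bortezomib. MAFF, a small MAF partner, went from an FPKM of 0.987 and 0.781 to 4.70 and 4.37 in the control line, from 1.57 and 0.950 to 9.15 and 7.59 in KO1, and from 1.01 and 0.638 to 9.05 and 7.97 in KO2. It was the only regulator called without the block, in all 3 lines (log2 fold change 1.56, 2.06 and 2.39; limma adjusted p 0.0385, 0.0124 and 0.00455). With the block MAFG (1.11, 0.89 and 0.79), MAFK (0.67, 1.41 and 1.04) and NFE2L2 (0.45, 0.67 and 0.55) were called higher in all 3 lines too (highest limma adjusted p 0.0457, for NFE2L2 in the control line). BACH1 was called higher in the control line and KO2 (1.05 and 0.72) and NFE2L1 in KO1 and KO2 (1.39 and 0.76). KEAP1, at 8.44 to 25.3, and CUL3, at 3.04 to 11.0, were not called in any line. Between lines NFE2L1 was lower in both knockout lines with the block (-3.27 in KO1 and -2.18 in KO2 in vehicle; limma adjusted p 6.2e-05 and 0.000448), and NFE2L2 was not called. In bortezomib MAFF was called higher than in the control line in KO1 (0.68, limma adjusted p 0.0328) and KO2 (0.70, adjusted p 0.038) with the block. Without the block neither was called.

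Other known NRF2 targets did not move as one group with bortezomib. Of 26 listed genes 25 were tested and none was called without the block. With it, 4 were higher and 6 lower in the control line, 5 higher and 2 lower in KO1, and 2 higher and 5 lower in KO2, with median log2 fold changes of -0.14, 0.20 and -0.06, beside 32.4%, 27.7% and 27.0% of all tested genes called in either direction and medians of -0.01, 0.01 and -0.02. The largest changes in the control line were in OSGIN1, an oxidative stress growth inhibitor (1.50, limma adjusted p 0.000558), ME1, the cytosolic malic enzyme that makes NADPH (1.40, adjusted p 0.000332), and CYP4F11, a fatty acid hydroxylase (1.09, adjusted p 0.00130). OSGIN1 and ME1 were called higher in KO1 and KO2 too. UGDH, which supplies UDP-glucuronate, and MGST1, a membrane glutathione transferase, were called lower in all 3 lines (UGDH -1.07, -0.76 and -1.06; MGST1 -0.96, -0.75 and -0.80); both were chosen after their values were seen.

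Between KO1 and KO2 in vehicle the same list pointed mostly one way. In KO1 against KO2 24 of its 25 tested genes had a negative log2 fold change (median -0.51), beside a median of -0.05 over all tested genes. Of the 25, 5 were called, against 3.00% of all genes, all lower in KO1 (CYP4F11, GPX2, HMOX1, PTGR1 and FTL). The largest were CYP4F11 (-2.65, limma adjusted p 7.9e-05), the glutathione peroxidase GPX2 (-2.11, adjusted p 0.0123) and the haem oxygenase HMOX1 (-1.15, adjusted p 0.0227). In KO2 against the control line in vehicle GPX2 was the only one called, and higher (2.89, limma adjusted p 0.00363), where 4.91% of all tested genes were called. In KO1 against the control line in vehicle CYP4F11 (-1.93) and HMOX1 (-1.44) were called lower, where 5.95% of all tested genes were called. There 2 of the 25 had a positive log2 fold change (median -0.265, beside 0.03 over all tested genes). In bortezomib 10 of the 25 did (median -0.052, beside 0.058 over all tested genes). KO2 against the control line went the other way, with 19 of the 25 positive in vehicle (median 0.201, beside 0.081 over all tested genes). In bortezomib 18 of the 25 were positive for KO2 (median 0.164, beside 0.064 over all tested genes).

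Of 19 relatives from the same enzyme and transporter families 14 were tested. With bortezomib and the block 2 were called higher and 4 lower in the control line, 0 and 3 in KO1, and 1 and 4 in KO2, where 32.4%, 27.7% and 27.0% of all genes were called. ABCG2, an exporter of conjugates and drugs, fell by 0.97 in the control line, by 1.09 in KO1 and by 1.23 in KO2 (limma adjusted p 0.00337, 0.00254 and 0.00137). The aldehyde dehydrogenase ALDH3B1 and the exporter ABCC4 were called lower in all 3 lines as well. ABCC5, a nucleotide exporter, was higher in the control line (0.88, limma adjusted p 0.00172) and in KO2 (0.46, adjusted p 0.0337), opposite in direction to ABCC2 and ABCC3. AKR1D1 was at 0 in 11 of 12 libraries, and AKR1C4, AKR7A3, CBR3 and ALDH3B2 were also below the filter. ALDH1A1, a retinal dehydrogenase, was at 468 to 2087, and it was lower in KO1 than in KO2 in vehicle (-1.18, limma adjusted p 0.00721).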

How the data were processed

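The authors deposited FPKM for 58676 genes in 12 libraries, with a gene length, and per the submitters' processing notes STAR 2.5, HTSeq 0.6.1, CASAVA, DESeq2 and hg19 were used. All gene IDs and 95.17% of the positions were those of GENCODE release 29 on GRCh38, so deposited positions are printed as such. FPKM times length gave whole reads for 100% of values in each library (tolerance 0.05 reads), which gave the depth. A linear model on log2(FPKM + 1) with 1 mean per group over all 12 libraries was fitted with limma 3.58.1 (eBayes with a trend, R 4.3.3) to the 12194 genes (20.8%) whose FPKM averaged 1 or more. This scale understates changes of low genes. A gene was called at a Benjamini-Hochberg adjusted p under 0.05 over all tested genes. The replicate difference (R2 minus partner) correlated across genes between groups, with r 0.70 to 0.89 over all 15 pairs of groups (median 0.81) and 0.80 to 0.89 over the 6 pairs of KO groups, so title suffixes pair the libraries. The unsuffixed control libraries had a level of their own. Alternatives were the pairing, the pseudocount, the filter, the scaling, voom on recovered reads scaled by library size (chosen after seeing the data) and leaving out each library. The fit was run on simulated reads in which a gene had the same R2 difference in every group. In the data this difference varied, for AKR1C1 from -1.40 in control vehicle to 0.39 in KO1 vehicle, so the simulation does not cover that case. With 2 libraries a group no permutation test of single genes was run. Floors at 3 reads cover counting error only. Members and gene lists were chosen with earlier results of these data known. Named genes were the 10 members, every regulator, of the other lists the 3 largest changes in a contrast where none was called, and the 3 genes most like 4 members; others named were chosen after their values were seen. Python 3.11.15, pandas 2.3.3 and Biopython 1.88 were used for annotation and sequences.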

Additional observations from a re-analysis of the deposited data

Results flagged for a closer look

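AKR1C1 was picked out because its response to bortezomib went in opposite directions in the knockout lines. Its FPKM was 148% and 131% of vehicle in the 2 pairs of KO1 and 86.3% and 88.7% in the 2 pairs of KO2. The response of KO1 minus that of KO2 was 0.61 in log2(FPKM + 1) and did not pass the test in limma, with an adjusted p of 1 without the replicate block (SE 0.65) and of 0.9995 with it (SE 0.28). In the control line the first pair was at 81.3% of vehicle and the R2 pair at 142%.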

How the results depend on the processing

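The replicate pairing decided the calls. Without it 0 of the 10 genes were called in any of the 9 comparisons, with either pseudocount (1 or 0.1), without the filter, with quantile or common-sum scaling, with voom and with any 1 library left out. With the replicate block of 3 levels 5, 3 and 3 were called for bortezomib in the control line, KO1 and KO2, 2 and 1 for KO1 against the control line in vehicle and bortezomib, 1 and 2 for KO2, 5 for KO1 against KO2 and 0 for the interaction. In the same order the block gave 5, 3, 3, 2, 1, 1, 2, 5 and 0 with a pseudocount of 0.1, 5, 3, 3, 3, 2, 1, 2, 5 and 0 with FPKM rescaled to a common sum, 4, 3, 3, 2, 2, 1, 2, 5 and 0 without mitochondrial genes, 6, 4, 4, 4, 3, 3, 3, 6 and 0 with voom, and 4, 3, 3, 4, 4, 2, 3, 5 and 0 with 2 levels. Leaving out 1 library with the block gave 1 to 6, 2 to 3 and 1 to 4 for bortezomib in the 3 lines, 1 to 2 and 0 to 2 for KO1 against the control line, 0 to 2 and 1 to 2 for KO2, 1 to 5 for KO1 against KO2 and 0 for the interaction. The cause was not tested. Voom used library-size scaling, chosen after seeing the data, and with TMM scaling it was not run. Each of the 22 calls kept its direction when 1 library was left out with the block, and 7 were kept in all 12 such fits (ABCC3 with bortezomib in each line, ABCC2 in KO1, AKR1C1 in KO1 against either other line in vehicle, ALDH3A1 in KO2 against the control line in bortezomib). For bortezomib these are not 12 separate checks, because leaving out a library of another line does not change the fold change. In the control line, leaving out 1 of its own libraries gives the value of the pair left whole.

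AKR1C1 in KO2 against the control line in vehicle reversed, from -0.12 to 0.46 with the replicate block, and with the block to 0.48 (pseudocount of 0.1), 0.42 (rescaled), 0.51 (without mitochondrial genes) and 0.48 (voom), but not with the block of 2 levels (-0.12). With 1 library left out it ranged from -0.82 to 0.58 without the block and from -0.13 to 0.65 with it, being negative only without the R2 vehicle library of the control line. With the block it was 0.44 without a KO1 bortezomib library, and 0.37 and 0.61 without the first and the R2 vehicle library of KO2. The other directions that turned belonged to results with no call in the unpaired fit, but that fit called no gene of the set in any comparison. One that turned without the block, ABCC2 with bortezomib in the control line, was called with the block (-0.70, limma adjusted p 0.0146). With 1 library left out and no block, the bortezomib fold change of AKR1B1 ranged from -0.33 to 0.91 in the control line, -0.23 to 1.15 in KO1 and -0.31 to 0.75 in KO2, that of NQO1 from -1.27 to 0.066 in the control line and -0.91 to 0.69 in KO1, that of AKR1C2 from -1.10 to 0.19 and that of ABCC2 from -1.47 to 0.059 in the control line, and NQO1 in KO1 against KO2 from -1.58 to 0.026. With the block, AKR1B1 in KO2 was at -0.067 without its R2 bortezomib library, and NQO1 in KO1 at 0.27 without its first vehicle library.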
